A study of Mus musculus with 2 samples.

Results

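The granins and the enzymes that mature secreted peptides were described in newborn mouse hindbrain through 10 genes named by symbol. The genes, chosen with earlier results of these data known, were Chga, Chgb, Scg2, Scg3, Scg5, Pcsk1n, Pcsk1, Pcsk2, Cpe and Pam. All 10 were found among the 43346 mouse genes of the deposited tables. The study holds 1 group, hindbrain of the strain B6NCrl at postnatal day 0, with 1 library from pup 1 (replicate 1) and 1 library from pup 3 (replicate 2). Per the labels both pups share 1 donor record and carry no treatment, the sex was not collected, and each library started from 13 pg of RNA above 200 nt, stated as 1 cell-equivalent and taken from a single hindbrain by a Smart-seq protocol. A library therefore samples a very small amount of RNA from the mixed cells of a tissue, and in such RNA fewer cells of a type and less RNA per cell cannot be told apart.

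Peptide hormones and neuropeptides are made as larger precursors, stored in dense core vesicles and released on a stimulus. Granins are acidic proteins that aggregate in the late Golgi, help to form these vesicles and are themselves cut into peptides. The convertases PC1/3 (Pcsk1) and PC2 (Pcsk2) cut precursors after pairs of basic residues, carboxypeptidase E (Cpe) trims the basic residues left at the new ends, and the copper enzyme PAM (Pam) turns a terminal glycine into an amide, which many neuropeptides need for activity. Both convertases have a protein partner, 7B2 (Scg5) for PC2 and proSAAS (Pcsk1n) for PC1/3.

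The sequences that set apart the transcript forms of Scg2 and Pam are shown first, because the transcript shares given further on rest on them. In Scg2 a short form (ENSMUST00000185234.1) lacks 120 coding bases that the long form (ENSMUST00000049972.5) has, at chr1:79435932-79436051 on the minus strand of GRCm38, and the rest of the frame is kept (40 codons fewer). The lines run 5′ to 3′ with 15 coding bases on either side in lower case, and capitals mark the bases that the short form lacks.
Scg2 long form: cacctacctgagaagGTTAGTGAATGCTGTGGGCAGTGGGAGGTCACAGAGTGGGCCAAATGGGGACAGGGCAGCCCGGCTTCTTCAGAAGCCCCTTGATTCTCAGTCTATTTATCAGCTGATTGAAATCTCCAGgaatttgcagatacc
Scg2 short form: cacctacctgagaaggaatttgcagatacc

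The missing Scg2 stretch opens with GT and closes with AG, the bases found at the ends of most introns, and begins at base 954 counted from the first base of the start codon. In Pam the short form (ENSMUST00000161567.3) lacks a coding exon of 318 bases that the long form (ENSMUST00000058762.10) holds as exon 15 of 26, at chr1:97864203-97864520 on the minus strand. This stretch, 106 codons long, lies between the parts that encode the hydroxylating and the cleaving parts of the enzyme, so each form still encodes both activities. In the next lines lower case marks the end of the exon before it, and capitals mark what follows in each form.
Pam long form: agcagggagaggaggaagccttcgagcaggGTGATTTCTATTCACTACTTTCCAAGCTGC
Pam short form: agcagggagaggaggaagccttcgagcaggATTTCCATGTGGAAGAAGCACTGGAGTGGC

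All 10 genes were read in pup 1 and 9 of them in both pups, at an expected count of at least 5. TPM, the unit of all levels, is a gene's part of all transcripts after division by length and was rescaled over nuclear genes, and an expected count is an estimate in which reads shared among transcripts are split. Across all protein-coding genes, 37.8% were detected in both pups, and among those with at least 50 counts in a library and a mean of 10 to 1000 TPM, a band that holds all 10 genes, 84.2% were. Summed over the 10 genes the level was 1996 TPM in pup 1 against 1372 TPM in pup 3 (1684 ± 441 TPM, SD, n = 2). The libraries held 35462381 expected counts in pup 1 and 29866728 in pup 3, and 3 counts on 1000 nt of effective length came to 0.145 and 0.164 TPM. With 1 library per pup no test of the pups was possible, and the intervals given describe counting error only, because copies made by amplification are read many times.

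Ordered by mean level, Cpe (449 ± 224 TPM) stood first, followed by Scg5 (387 ± 89.7 TPM), Scg2 (299 ± 31.2 TPM) and Chga (197 ± 26.0 TPM). Scg3 (138 ± 72.4 TPM), Chgb (93.7 ± 10.8 TPM) and Pcsk1n (63.6 ± 27.2 TPM) came next. Pam (19.7 ± 7.83 TPM) and the convertases Pcsk2 (18.1 ± 10.7 TPM) and Pcsk1 were the lowest. Among neighbours in this order, the values of the pups overlapped between Cpe and Scg5, Chga and Scg3, Scg3 and Chgb, Pam and Pcsk2, and Pcsk2 and Pcsk1. They did not overlap between Scg5 and Scg2, Scg2 and Chga, Chgb and Pcsk1n, or Pcsk1n and Pam. In pup 1 Cpe led the order, and in pup 3 Scg5 and Scg2 were above it.

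**Figure D1:**
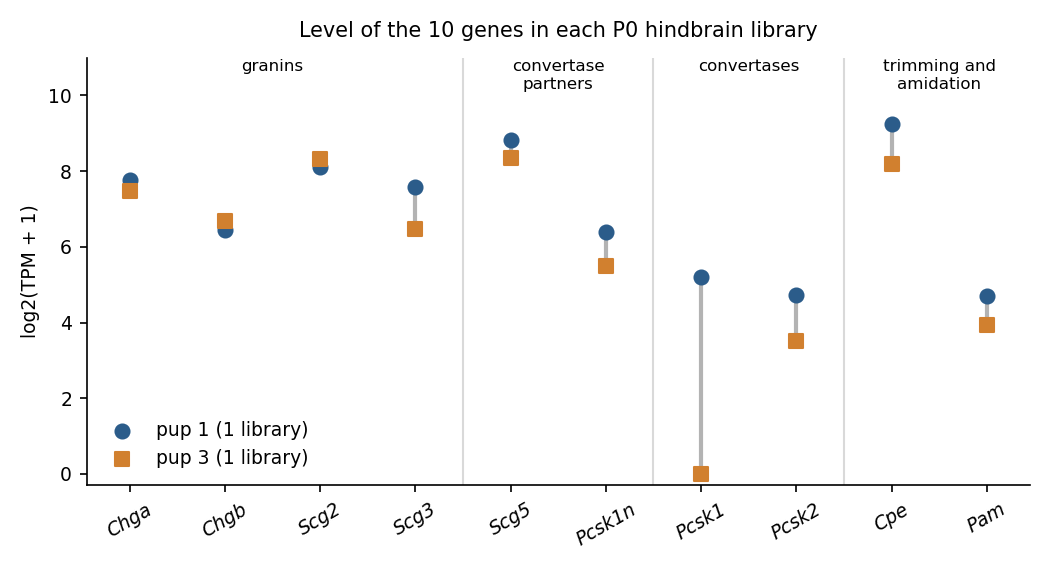
Level of each gene as log2(TPM + 1) on the vertical axis, with circles for pup 1, squares for pup 3 and a grey line joining the values of a gene; n = 1 library per pup. Chga, Chgb and Scg2 lie close together in the pups, and Pcsk1 sits at 36.02 TPM in pup 1 and at 0 in pup 3.

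The granins Chga, Chgb and Scg2 were close to equal in the pups. Scg2 (ENSMUSG00000050711.7, chromosome 1, 79434669 to 79440120), secretogranin II, the precursor of the peptide secretoneurin, was at 277 TPM in pup 1 (95% counting interval 273 to 282) and 321 TPM in pup 3 (316 to 327). Chga (ENSMUSG00000021194.5, chromosome 12, 102554969 to 102565028), chromogranin A, was at 215 TPM in pup 1 against 178 TPM in pup 3. Chgb (ENSMUSG00000027350.8, chromosome 2, 132781278 to 132795079), chromogranin B, was at 86.1 TPM in pup 1 against 101 TPM in pup 3. These were the smallest differences among the 10 genes, at 1.16-fold for Scg2 and 1.18-fold for Chgb, both higher in pup 3, and 1.21-fold for Chga, higher in pup 1. Their summed level was 579 TPM in pup 1 against 601 TPM in pup 3, and the ratio of Scg2 to Chgb was 3.22 in pup 1 and 3.17 in pup 3. Scg3 (ENSMUSG00000032181.6, chromosome 9, 75643189 to 75684056), secretogranin III, which binds cholesterol-rich vesicle membrane and holds chromogranin A there, was at 189.5 TPM in pup 1 against 87.2 TPM in pup 3. It was 2.17-fold higher in pup 1, and the ratio of Scg3 to Chga was 0.881 in pup 1 and 0.488 in pup 3.

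Each convertase partner was above its convertase, by more for Scg5 and Pcsk2 than for Pcsk1n and Pcsk1 in pup 1. Scg5 (ENSMUSG00000023236.7, chromosome 2, 113776362 to 113829121), whose product 7B2 escorts the PC2 precursor and blocks the enzyme until it is cut, was at 450.3 TPM in pup 1 against 323.5 TPM in pup 3. It exceeded Pcsk2 by 17.6-fold in pup 1 and 30.9-fold in pup 3. Pcsk1n (ENSMUSG00000039278.10, chromosome X, 7919822 to 7924410), whose product proSAAS inhibits PC1/3, was at 82.8 TPM in pup 1 against 44.4 TPM in pup 3. It exceeded Pcsk1 by 2.30-fold in pup 1. Both partners were higher in pup 1, Scg5 by 1.39-fold and Pcsk1n by 1.87-fold, and they summed to 533 TPM in pup 1 against 368 TPM in pup 3. The convertases summed to 61.7 TPM in pup 1 against 10.5 TPM in pup 3, a gap made mostly by Pcsk1.

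Pcsk1 (ENSMUSG00000021587.4, chromosome 13, 75089826 to 75134861) had 1924 counts in pup 1, at 36.02 TPM, and 0 counts in pup 3. Against a floor of 3 counts, 0.0637 TPM in the pup 3 library, it was at least 565-fold higher in pup 1. This floor covers sequencing depth only. With 13 pg of RNA per library, molecules lost before sequencing can also give 0 counts, so 565-fold is no bound on the tissue difference. Of 1061 protein-coding genes at 30 to 45 TPM in pup 1, 14.2% also had 0 counts in pup 3, and 18.2% were under the detection threshold there. The counts refer to a Pcsk1 transcript model of 2677 bases. The same transcript is 5040 bases long in GENCODE M21, so reads in the added bases were not part of the count. Pcsk2 (ENSMUSG00000027419.9, chromosome 2, 143546156 to 143816285) was read in both pups, at 25.6 TPM (2457 counts) in pup 1 and 10.5 TPM (885 counts) in pup 3, 2.45-fold higher in pup 1. The antisense genes Pcsk2os1 and Pcsk2os2, which overlap Pcsk2 in GENCODE M21, had 0 counts in both libraries.

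Cpe (ENSMUSG00000037852.7, chromosome 8, 64592542 to 64693054) was at 608 TPM in pup 1 against 291 TPM in pup 3, and in pup 1 was higher than 98.95% of protein-coding genes. The difference was 2.09-fold, with a 95% counting interval for pup 3 over pup 1 of 0.468 to 0.4899. Pam (ENSMUSG00000026335.12, chromosome 1, 97795114 to 98095646) was at 25.2 TPM in pup 1 against 14.2 TPM in pup 3, 1.78-fold higher in pup 1. The ratio of Cpe to Pam was 24.1 in pup 1 and 20.6 in pup 3, and that of Cpe to Pcsk2 was 23.7 and 27.8. These ratios of Cpe to other enzymes moved less between the pups than that of Scg2 to Cpe, which was 0.456 in pup 1 and 1.10 in pup 3. The enzyme ratio of Pcsk1 to Pcsk2 moved more, at 1.40 in pup 1 and 0 in pup 3. The pseudogene Gm3531 lies within Pam on the same strand and had 73.7 and 68.8 counts, so strand could not separate their reads. Eras, which overlaps Pcsk1n by 135 bases on the other strand, had 0 counts in both. The split of reads between overlapping genes is uncertain, and strand use is not stated.

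Of the 10 genes, 8 were lower in pup 3 and 2 higher, where 52.7% of 12300 nuclear genes with at least 50 counts in a library were lower (47.4% of protein-coding genes in the band of 10 to 1000 TPM). Of the 8, 4 (Scg3, Pcsk1, Pcsk2 and Cpe) were lower by at least 2-fold on the log2(TPM + 1) scale, with none higher by that much. Among the 12300 genes 34.7% were at least 2-fold lower in pup 3 and 27.9% at least 2-fold higher (62.7% in either direction), so a count of 4 in 10 lower is close to the background. In the band the shares were 25.8% lower and 28.1% higher (53.8% in either direction). The log2 ratio of pup 3 over pup 1 had a median of -0.84 over the 10 genes, against -0.16 over the 12300 genes and 0.10 over the 8068 genes of the band. With scaling to the spike-in counts the number lower by at least 2-fold was 2 (Cpe and Scg3 fell short of it), with FPKM or a pseudocount of 5 it was 3, and it was 4 with scaling factors from edgeR or DESeq2. The 8 neuronal markers, all detected in both pups, summed to 8294 TPM in pup 1 against 5520 TPM in pup 3, a sum led by Tubb3 (3905 and 2044 TPM) and Stmn2 (2301 and 1554 TPM). Their median log2 ratio was -0.62, 1 was at least 2-fold lower in pup 3 and 1 at least 2-fold higher, and they did not move together: Map2 was at 203 and 377 TPM and Elavl4 at 149 and 328 TPM. Astrocyte and radial glial markers, 7 of 8 detected in both, summed to 4741 and 4417 TPM with Fabp7 at 2791 and 3012 TPM and Aldoc at 886 and 768 TPM. Their median was -0.63 and 3 of 8 were at least 2-fold lower, and Slc1a3 was at 532 and 281 TPM. Oligodendrocyte lineage markers (5 of 7 in both) summed to 570 and 317 TPM, with a median of -0.59. Choroid plexus markers (4 of 7) summed to 3270 and 3602 TPM, nearly all of it Ttr, with a median of -0.42 and 2 of 5 at least 2-fold lower. The sums were 293 and 491 TPM for meningeal fibroblasts (5 of 6), 62.6 and 106 TPM for ependyma (2 of 5), 200.8 and 214 TPM for endothelium and mural cells (4 of 7), and 206 and 192 TPM for microglia and macrophages (3 of 7). The medians of the log2 ratio, over genes with at least 50 counts in a library, were 0.57, -0.80, -0.71 and 0.22 in that order. For ependyma and for endothelium and mural cells the median thus had the opposite sign to the change in the sum. The part of cell makeup in the differences of the 10 genes was not tested.

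**Figure D2:**
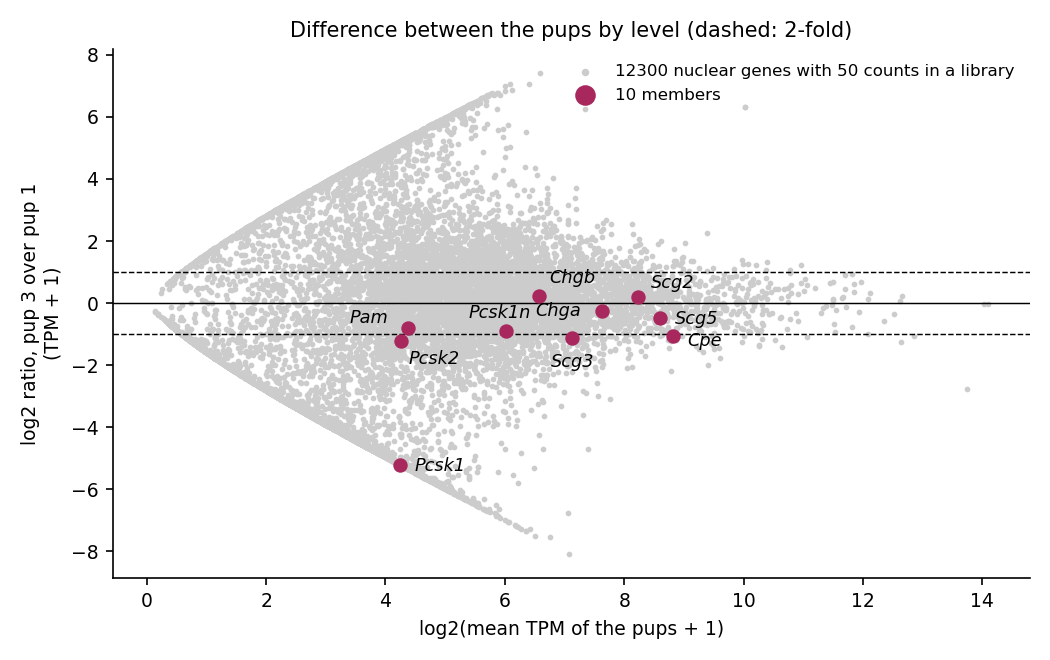
Log2 ratio of pup 3 over pup 1 against the mean level, both from TPM + 1, for 12300 nuclear genes with at least 50 counts in a library (grey) and the 10 genes (red); dashed lines mark 2-fold. Chga, Chgb and Scg2 lie near 0, Scg3, Pcsk2 and Cpe just beyond the lower line, and Pcsk1 on the lower edge of the cloud, where genes with 0 counts in pup 3 lie.

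Granins also mark endocrine cells, so markers of pituitary cells and of adrenal and catecholamine cells were read beside them. All 10 pituitary markers, Pomc, Gh, Prl and Cga among them, had 0 counts in both libraries. Of 6 markers of adrenal and catecholamine cells none was detected in both pups. In pup 1, 3 were detected, Slc18a2 at 2237 counts, Th at 824 and Ddc at 728. All 3 were at least 2-fold lower in pup 3, where 34.7% of all genes were. The 6 markers summed to 76.1 TPM in pup 1 against 0.290 TPM in pup 3. The latter came from 5 counts of Dbh and 2 of Ddc.

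The transcript tables gave more than 1 transcript for 5 of the 10 genes, and in the 9 genes read in both pups the leading transcript was the same. Of these 9 genes 5 have a single listed transcript, so only Pam, Pcsk2, Scg5 and Scg2 could show a split. The leading transcript took at least 95% of the gene's TPM in both pups for Pam, Pcsk2 and Scg5, and not for Scg2. The Scg2 short form, without the 120 bases printed above, took 8.99% of the TPM of Scg2 in pup 1 and 45.3% in pup 3, with 1146 and 5897 estimated counts. The long form took 91.01% and 54.7%. The forms also differ at the 5′ end, where the long form starts 78 bases further upstream, so the split rests on both differences. Among 3236 genes with at least 2 transcripts and at least 1000 counts in both pups, the share of the leading transcript differed by at least 30 percentage points in 29.4%, and the 36.3 points of Scg2 were reached or passed by 22.7% of them.

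Pam was read almost wholly as the form without the 318-base exon. Of its 15 listed transcripts, 3 hold both the first and the last coding exon of the long form. The short form, which lacks the optional exon, took 96.5% of the TPM of Pam in pup 1 and 98.2% in pup 3, with 1781 and 897 estimated counts. The other two hold it and together took 3.48% in pup 1 (72.6 counts) and 0% in pup 3. The short form also starts 118366 bases downstream of the long form, so reads at the 5′ end enter the split as well. The exon is known as the optional linker whose presence lets the enzyme be cut into its separate parts.

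**Figure D3:**
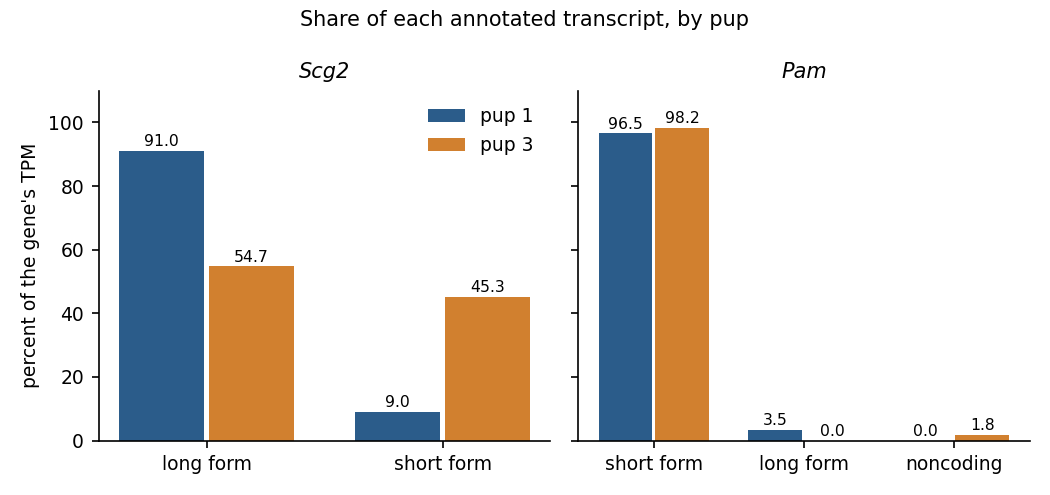
Percent of each gene's TPM taken by the annotated transcripts of Scg2 and Pam that had counts, with blue bars for pup 1 and orange bars for pup 3 (1 library each). The short form of Scg2 takes 8.99% in pup 1 and 45.3% in pup 3, and the short form of Pam is above 95% in both.

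Some promoters of the 10 genes share a sequence feature. The cAMP response element, the letters TGACGTCA, the same on both strands, is bound by CREB-family factors and is a known element of granin promoters. It was searched in RefSeq promoters of GRCm38.p6, 250 bases before to 50 after each start, in which 9 of the 10 genes were matched (Cpe was not). It was present for 3 of the 9, Chgb, Scg2 and Pcsk1, against 2.03% of 27025 genes. The shorter TGACGT, which the full element contains, was present on either strand for 5 of the 9, adding Chga and Scg5, against 8.37% of genes. Because the element was already known in granin promoters, these shares only describe the genes and are no test of enrichment. In the lines below capitals mark the match, on the strand of the gene.
Scg2: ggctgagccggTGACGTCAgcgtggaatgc
Chgb: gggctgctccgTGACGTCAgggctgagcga
Pcsk1: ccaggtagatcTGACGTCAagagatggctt
Chga: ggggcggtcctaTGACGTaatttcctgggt
Scg5: aaaggaggtaaaTGACGTtcataggggtcg

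The matches began 68 (Scg2), 72 (Chgb), 78 (Pcsk1), 44 (Chga) and 175 (Scg5) bases before the RefSeq start, at chr1:79440076-79440105 (minus strand), chr2:132781559-132781588, chr13:75089768-75089797, chr12:102554885-102554914 and chr2:113829249-113829278 (minus strand). Pcsk1 had a further match, to the shorter TGACGT, 50 bases before its start, which is not printed above. The windows of Scg2 and Chgb lie inside an exon of GENCODE M21, whose models start further upstream. A match is no evidence that a factor was bound.

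The other genes of the pathway were read from 6 lists, of which 62 of 112 genes matched were detected in both pups. Among the 7 other convertases 4 were detected in both, led by Mbtps1, the site-1 protease of the Golgi, at 33.0 TPM in pup 1 against 59.6 TPM in pup 3. Pcsk5 was at 7.20 and 16.3 TPM, and Pcsk7 at 17.1 and 0.167 TPM. Furin, the convertase of the constitutive pathway, had 206 and 0 counts, Pcsk4 0 and 565 counts, and Pcsk6 0 and 142 counts. The convertase list had 3 of 7 genes at least 2-fold lower and 3 at least 2-fold higher in pup 3, where the 34.7% and 27.9% of all genes apply.

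Among 6 other carboxypeptidases of the Cpe family 1 was detected in both pups, Cpxm1, which lacks the catalytic residues of the family, at 24.1 and 47.1 TPM. Cpd, which trims peptides in the constitutive pathway, had 447 and 0 counts, Cpxm2 0 and 27 counts, and Cpm 1 and 0 counts. Cpn1 and Cpz had 0 counts in both. Cpe was therefore the highest of the family in both libraries.

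Among 17 other granin-like proteins and peptide-modifying enzymes 11 were detected in both pups. Resp18, a secretory vesicle protein of endocrine and nerve cells, was at 390.3 TPM in pup 1 against 659 TPM in pup 3. Gnas, whose locus also encodes the granin-like NESP55, was at 247 and 428 TPM, and the cathepsins Ctsb and Ctsl were at 308 and 218 TPM and at 83.2 and 223 TPM. Vgf, a granin-like peptide precursor, had 85 and 7 counts. Of the glutaminyl cyclases, which close the N-terminal glutamine of some peptides, Qpct had 0 and 1866 counts and Qpctl 2313 and 0 counts. In this list 6 of 17 genes were at least 2-fold lower and 5 at least 2-fold higher in pup 3. These counts are close to the 34.7% and 27.9% of all genes.

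Of 8 genes that supply copper, ascorbate and protons to amidation 7 were detected in both pups. Of the 7 with at least 50 counts in a library, 1 was at least 2-fold lower and 1 at least 2-fold higher in pup 3. The shares over all genes were 34.7% and 27.9%. The vesicle proton pump subunits Atp6ap1 and Atp6v0a1 were at 468 and 307 TPM and at 122 and 168 TPM. Atp6ap2 was at 241 and 197 TPM, and the copper chaperone Atox1 at 269 and 223 TPM. Cyb561, which passes electrons from ascorbate into the vesicle, was at 52.6 and 48.0 TPM. Atp7a, the pump that loads copper into the secretory pathway, had 0 counts in both.

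Of 32 genes of dense core vesicle formation, transport and release 28 were detected in both pups, 1 only in pup 1, 1 only in pup 3, 2 in neither. The vesicle GTPase Rab3a was at 642 and 677 TPM, the vesicle motor Kif1a at 301 and 505 TPM, and Syt11 at 477 and 183 TPM. In this list 7 genes were at least 2-fold lower and 10 at least 2-fold higher in pup 3. Their base was the 30 genes with at least 50 counts in a library, which had a median log2 ratio of 0.52. Over all genes the shares were 34.7% lower and 27.9% higher. The median thus had the opposite sign to that of the 10 genes. So did the other convertases (0.83), the peptide precursors (0.41) and all genes of the 10 to 1000 TPM band (0.10). The medians were negative for the other carboxypeptidases (-0.69), the granin-like and modifying list (-0.09) and the copper, ascorbate and proton list (-0.27). The differences between the lists were not tested.

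Of 42 matched peptide precursors 11 were detected in both pups, 7 only in pup 1, 5 only in pup 3, 19 in neither. The sum over the list was 1557 TPM in each pup, while single genes differed. Of the 20 with at least 50 counts in a library, 6 were at least 2-fold lower and 7 at least 2-fold higher in pup 3. The shares over all genes were 34.7% and 27.9%, and the median log2 ratio of the 20 was 0.41. The highest were Sst, the somatostatin precursor, at 505 and 406 TPM, Penk, the enkephalin precursor, at 379 and 321 TPM, and Tac1, the substance P precursor, at 181 and 296 TPM. Calca, the precursor of calcitonin gene-related peptide, was at 48.7 and 78.8 TPM.

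**Figure D4:**
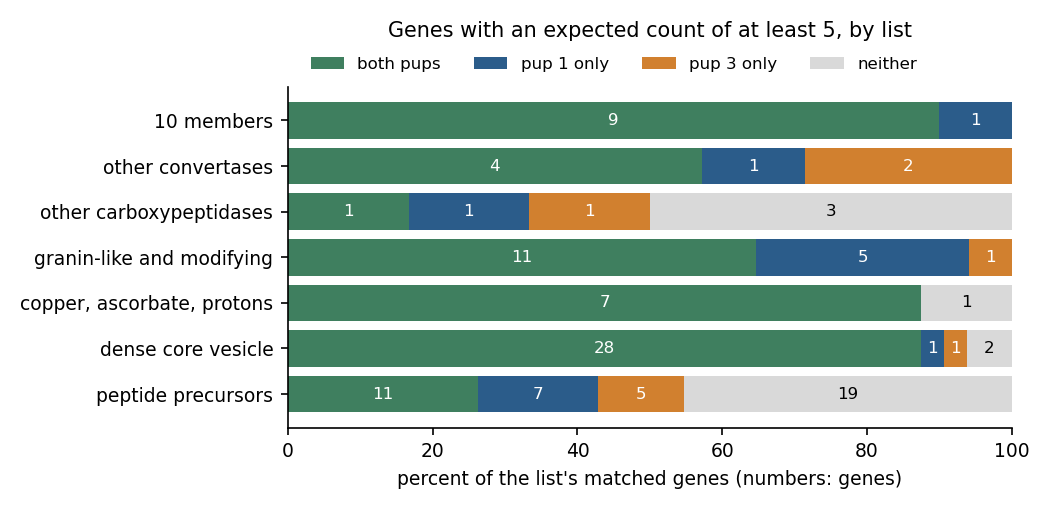
Percent of the matched genes of each list that reached 5 expected counts in both pups, in 1 pup only or in neither, with the number of genes written in each bar segment. The 10 genes, the dense core vesicle list (28 of 32) and the copper, ascorbate and proton list (7 of 8) were mostly read in both pups, and the peptide precursors (11 of 42) were not.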

How the data were processed

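RNA of 2 hindbrains at postnatal day 0 was analysed, 1 library per pup. The authors deposited expected counts, TPM, FPKM and, for transcripts, the percent of the gene's TPM, per the file headers, made on mm10 with annotation M4, per the accompanying notes. For the aligner, versions and strand setting: not given in the sources used here. Of 43346 mouse gene identifiers 98.0% matched GENCODE M21 (GRCm38), from which symbols, coordinates and transcript sequences were taken. TPM was rescaled to 1000000 over 43309 nuclear genes. Detection was an expected count of at least 5, the pseudocount was 1, and fold calls needed 50 counts in a library. Ratios and floors are in TPM, with a floor of 3 counts. Intervals are exact Poisson for levels and normal on the log scale for ratios, at 95%. Scaling factors came from edgeR 4.0.16 and DESeq2 1.42.0 on rounded expected counts, used for no test. The fold count was tested on simulated data. Named were the 10 genes, all other convertases and carboxypeptidases, the 4 highest of each other list, and the 2 highest neuronal and astrocyte markers. Ttr, Map2, Elavl4, Slc1a3, the adrenal and catecholamine markers, Vgf, Qpct, Qpctl, Cyb561, Atp7a and the pituitary markers were named after their values were seen. The genes and lists were chosen with earlier results of these data known. Of the listed symbols 1, Kiss1, had no match. Features of the proteins were not analysed here, and not every gene under the naming rule is reported here.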

Additional observations from a re-analysis of the deposited data

How the results depend on the processing

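Across 9 other scalings, units and pseudocounts, 8 of the 10 genes were lower and 2 higher in pup 3 in each, and none of 90 single-gene ratios changed direction. The median log2 ratio of the 10 genes, -0.84, was -0.76 with FPKM, -0.94 with edgeR factors, -0.97 with DESeq2 factors, -0.72 with scaling to spike-ins and -0.74 with a pseudocount of 5. The median of all genes detected in both pups moved from its main value by -0.10 with edgeR factors and by -0.13 with DESeq2 factors, and by less than that otherwise. The count of 4 genes lower by at least 2-fold was 2 with scaling to spike-ins, 3 with FPKM, with CPM and with a pseudocount of 5, 6 at 1.5-fold and 1 at 4-fold. Other minimum counts left it at 4. Without replicate 1 the summed level was 1372 TPM and without replicate 2 it was 1996 TPM. The 9 genes detected in both pups stayed 9 at every detection threshold tried, and the 62 genes of the other lists became 56 to 64. No paired analysis was possible because there is 1 group. At this depth a gene with 0 counts could hold up to about 3 counts, so values that rest on a few counts (Cpm, Vgf and the adrenal markers in pup 3) are weakly measured.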
